A study of Mus musculus with 51 samples.

Results

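The nuclear genes for the subunits of oxidative phosphorylation were followed across mouse hepatocytes that lack FoxA transcription factors and mouse livers from an HNF4a deletion experiment. They were taken by symbol from the deposited expression matrix: Nduf genes of the A, B, C, S and V series for complex I, Sdha to Sdhd for complex II, Uqcr genes for complex III, Cox4 to Cox8 for complex IV and Atp5 genes for complex V, without symbols containing -ps. This gave 83 of 33773 symbols, of which 36 belong to complex I, 4 to complex II, 8 to complex III, 17 to complex IV and 18 to complex V. Cox7a2l, Atp5s and Atp5sl entered by their names only, and Ndufa4 is counted with complex I by its name although it is known as a component of cytochrome oxidase.

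Oxidative phosphorylation takes place at the inner mitochondrial membrane. Complexes I and II pass electrons from NADH and succinate to ubiquinone, complex III passes them to cytochrome c and complex IV to oxygen, and complex V uses the proton gradient that complexes I, III and IV build to make ATP. Most subunits are encoded in the nucleus and imported, a few are encoded in mitochondrial DNA, and the hepatocyte, which carries out urea synthesis, gluconeogenesis and fatty acid oxidation, is rich in mitochondria.

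Hepatocytes of 4 groups and livers of 2 groups were compared. FoxA triple null hepatocytes (4 libraries) came from adult FoxA1 L/L, FoxA2 L/L, FoxA3-/- mice, injected at 8 weeks of age with an AAV8 virus that expresses Cre recombinase from the hepatocyte-specific Tbg promoter. FoxA3 null hepatocytes (4 libraries) came from mice of the same alleles given AAV with GFP as controls of the same experiment, for which the age of 8 weeks is stated, so both groups lack FoxA3. FoxA1/A2 lox hepatocytes (3 libraries) are without a deletion, and in FoxA1/A2 Cre alfp hepatocytes (4 libraries) FoxA1 and FoxA2 are deleted by Cre alfp while FoxA3 is kept. HNF4a control (2 libraries) and HNF4a null (4 libraries) are livers, with HNF4a depleted in the adult. The labels give no age for the lox, Cre alfp and liver groups and do not say whether libraries are separate animals, so p-values measure the spread between these libraries, which may be technical. Triple null and FoxA3 null differ from lox and Cre alfp both in FoxA3 and as sets of libraries, and these cannot be told apart.

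Foxa3 was listed at 0 to 0.0112 RPKM in the triple null and FoxA3 null libraries and at 19.0 to 34.5 RPKM in lox and Cre alfp. Foxa2 was 0.243 to 0.470 RPKM in the triple null, 0.991 to 1.26 in Cre alfp and 6.84 to 20.6 in lox and FoxA3 null, and Foxa1 was 3.04 to 3.63, 1.14 to 1.34 and 4.71 to 10.1 RPKM in the same order. Hnf4a RNA went against its label, at 118 to 126 RPKM in the controls against 487 to 545 RPKM under the label HNF4a null, so directions in liver are those of the labels. The hepatocyte markers summed to at least 39116 RPKM in lox, Cre alfp and FoxA3 null, to 19580 to 24579 RPKM in the triple null, and in liver to 31465 to 31696 RPKM in the controls against 17419 to 19486 RPKM under the label HNF4a null. Relative depth ran from 1 to 1.1 in liver and from 2.01 to 4.07 in hepatocytes.

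Of the 83 genes, 76 passed the filter on low values in both the hepatocytes (RPKM of at least 1 in at least 3 of 15 libraries) and the livers (at least 2 of 6 libraries). The 7 that did not were Cox4i2, Cox6a2, Cox7b2, Cox8b, Cox8c, Atp5g2 and Atp5l2, of which Cox8c was listed at 0 in all 21 libraries. Most of the complex IV genes among them are known as isoforms of other tissues, such as heart, muscle, lung and testis. RPKM is scaled by gene length, so levels can be set side by side. By mean over the 21 libraries, complex I ran from 20.7 RPKM for Ndufa11 to 655 RPKM for Ndufa4, and complex II from 116 RPKM for Sdhd to 254 RPKM for Sdha. These means pool hepatocytes and livers, and the order differed between groups. Ndufa11 was not the lowest within any group. Ndufs1 was 23.0 RPKM in lox against 28.0 RPKM for Ndufa11, and Ndufb4 was 13.4 RPKM in FoxA3 null against 21.7 RPKM. In lox Sdhb, at 229 RPKM, was above Sdha at 123 RPKM. By the same pooled mean, complex III ran from 137 RPKM for Uqcrc1 to 1305 RPKM for Uqcrq. The top genes of complexes IV and V were Cox7b at 1488 RPKM and Atp5b, the catalytic beta subunit of ATP synthase, at 1307 RPKM. Uqcrq was 2117 RPKM in lox but 78.7 RPKM in the HNF4a controls, below Uqcrc1 at 96.7 RPKM there.

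Ndufb3, Ndufa8, Cox7b and Cox7a1 had the largest log2 differences of their complexes in triple null against FoxA3 null or in liver. The proximal promoters of these genes are shown. Each is 300 bases from RefSeq, assembly GRCm38.p6, from 250 bases before the transcription start to its first 50 bases, written 5′ to 3′ on the strand of the gene. The capitals mark CCAAT or its reverse complement ATTGG in Ndufb3, Cox7b and Cox7a1, and the NRF1 core on the reverse strand, GCATGCGC, in Ndufa8. Ndufb3 lies at chr1:58586147-58586446 on the plus strand, Ndufa8 at chr2:36049289-36049588 on the minus strand, Cox7b at chrX:106015450-106015749 on the plus strand and Cox7a1 at chr7:30183921-30184220 on the plus strand.
Ndufb3: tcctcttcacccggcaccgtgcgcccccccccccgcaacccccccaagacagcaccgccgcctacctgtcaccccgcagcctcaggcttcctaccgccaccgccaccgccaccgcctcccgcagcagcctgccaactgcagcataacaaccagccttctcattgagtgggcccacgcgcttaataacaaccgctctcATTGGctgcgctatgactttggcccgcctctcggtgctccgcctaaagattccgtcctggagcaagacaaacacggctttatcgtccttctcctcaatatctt
Ndufa8: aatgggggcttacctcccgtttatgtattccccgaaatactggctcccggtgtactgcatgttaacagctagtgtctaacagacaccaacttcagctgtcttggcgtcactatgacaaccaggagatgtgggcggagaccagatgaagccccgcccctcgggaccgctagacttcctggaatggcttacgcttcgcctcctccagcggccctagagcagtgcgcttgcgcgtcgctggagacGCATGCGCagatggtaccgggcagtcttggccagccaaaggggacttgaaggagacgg
Cox7b: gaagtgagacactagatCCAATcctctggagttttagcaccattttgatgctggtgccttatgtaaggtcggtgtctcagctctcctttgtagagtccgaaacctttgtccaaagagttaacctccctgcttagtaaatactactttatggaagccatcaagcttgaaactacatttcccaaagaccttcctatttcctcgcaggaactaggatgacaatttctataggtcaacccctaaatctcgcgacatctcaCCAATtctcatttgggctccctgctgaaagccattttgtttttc
Cox7a1: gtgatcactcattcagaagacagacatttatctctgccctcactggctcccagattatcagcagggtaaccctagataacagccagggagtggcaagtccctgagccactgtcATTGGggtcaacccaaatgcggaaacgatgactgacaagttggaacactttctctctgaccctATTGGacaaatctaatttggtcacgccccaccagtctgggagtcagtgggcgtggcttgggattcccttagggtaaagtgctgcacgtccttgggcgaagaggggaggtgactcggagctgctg

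Promoter windows were found for 66 of the 83 genes, 71 windows in all, and were read on both strands against all 32851 windows of the table. The core GCGCATGC of NRF1, a regulator of respiratory genes, was present in 14.1% of the members' windows and in 2.71% of all windows. The YY1 core AAGATGGC was present in 12.7% against 2.75%, the ETS core CCGGAAGT that GABP binds in 7.04% against 3.89%, and TCAAGGTCA, a site of ERR alpha, in 2.82% against 0.423%. The FOXA core TGTTTAC was found in 1 member window, that of Cox7a2, which is 1.41% against 3.65% of all, and the HNF4 site CAAAGTCCA in 0 member windows against 0.475% of all. CCAAT was present in 42.3% against 37.4%, CACGTG in 8.45% against 7.15% and TATAAA in 11.3% against 13.6%. The members' windows had a median GC content of 57.3% against 52.7% for all windows. These are matches of letters, and no binding data were joined to them.

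With FoxA1 and FoxA2 lost in FoxA3-deficient hepatocytes, most of the tested nuclear members were not called, which does not show that they were unchanged. Ndufb3, far higher, and Cox7a1, far lower, were the called members past a log2 difference of 1. In triple null against FoxA3 null, 14 of 76 genes rose and 3 fell by limma with Benjamini-Hochberg adjustment over all 11500 genes tested. That is 18.4% higher and 3.95% lower, beside 17.4% higher and 12.3% lower among all genes, so the share that rose was near the background. The median log2 difference was 0.14, beside 0.05 for all genes, on the log2(RPKM + 1) scale used throughout. Complex I held 9 of the genes that rose and 1 that fell, complex II none, complex III 1 that rose, complex IV 1 in each direction and complex V 3 that rose and 1 that fell. In bulk samples, fewer cells of a type and less RNA per cell cannot be told apart.

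Ndufb3, an accessory subunit in the membrane arm of complex I, stood apart. It was 271, 281, 265 and 313 RPKM in the triple null and 75.3, 94.4, 119.5 and 97.8 RPKM in FoxA3 null. It was 107, 110.5 and 107 RPKM in lox and 137, 143, 117 and 125 RPKM in Cre alfp. The lowest triple null library was thus above the highest library of each other hepatocyte group, and lox lay within the range of FoxA3 null. The difference from FoxA3 null was 1.55 ± 0.12 (SE, limma adjusted p = 4.92e-07), from group means of 283 ± 21.5 and 96.7 ± 18.1 RPKM (SD, n = 4 each), a ratio of 2.92. Against lox it was 1.37 (limma adjusted p = 2.79e-06) and against Cre alfp 1.11 (limma adjusted p = 1.22e-05). No other member of complex I differed from FoxA3 null by as much as 1, and the next, Ndufb4, by 0.56.

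Fam126b, a gene that is no member and was picked after its values were seen, lies head to head with Ndufb3 on the opposite strand. It encodes a component of a lipid kinase complex at the plasma membrane. Its 2 promoter windows, chr1:58586105-58586404 and chr1:58586284-58586583 on the minus strand, share 258 and 163 bases with the window of Ndufb3 printed above. Fam126b was 15.7, 12.7, 12.3 and 15.5 RPKM in the triple null and 6.57, 3.59, 3.92 and 3.62 RPKM in FoxA3 null. It was 3.65, 4.69 and 4.92 RPKM in lox and 6.78, 4.87, 4.51 and 7.67 RPKM in Cre alfp, so here too every triple null library exceeded every other hepatocyte library. The difference from FoxA3 null was 1.50 ± 0.18 (SE, limma adjusted p = 3.44e-05). Of 19 pairs of a member and a neighbour with overlapping windows on opposite strands, 14 had both genes tested, and this was the 1 pair in which both were called in the same direction in triple null against FoxA3 null. Such pairs numbered 3 in triple null against lox, 3 in triple null against Cre alfp and 2 in liver. Both genes were called in 4, 3 and 2 pairs in that order. Among all genes 27.7% were higher and 14.8% lower against lox, 26.9% and 14.4% against Cre alfp, and 41.1% and 11.7% in liver. Pairs called in the same direction numbered 0 in Cre alfp against lox and 0 in FoxA3 null against lox. In the latter 7 members and 5 neighbours were called. In the other pair with both genes called in triple null against FoxA3 null, Atp5h rose by 0.47 while Kctd2 fell by 0.65 (limma adjusted p = 0.00128). Orc2, the next gene beyond Fam126b, rose by 0.50. On the other side Flacc1, next to Ndufb3, was not tested, and Cflar, the gene after it, rose by 0.50.

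**Figure D1:**
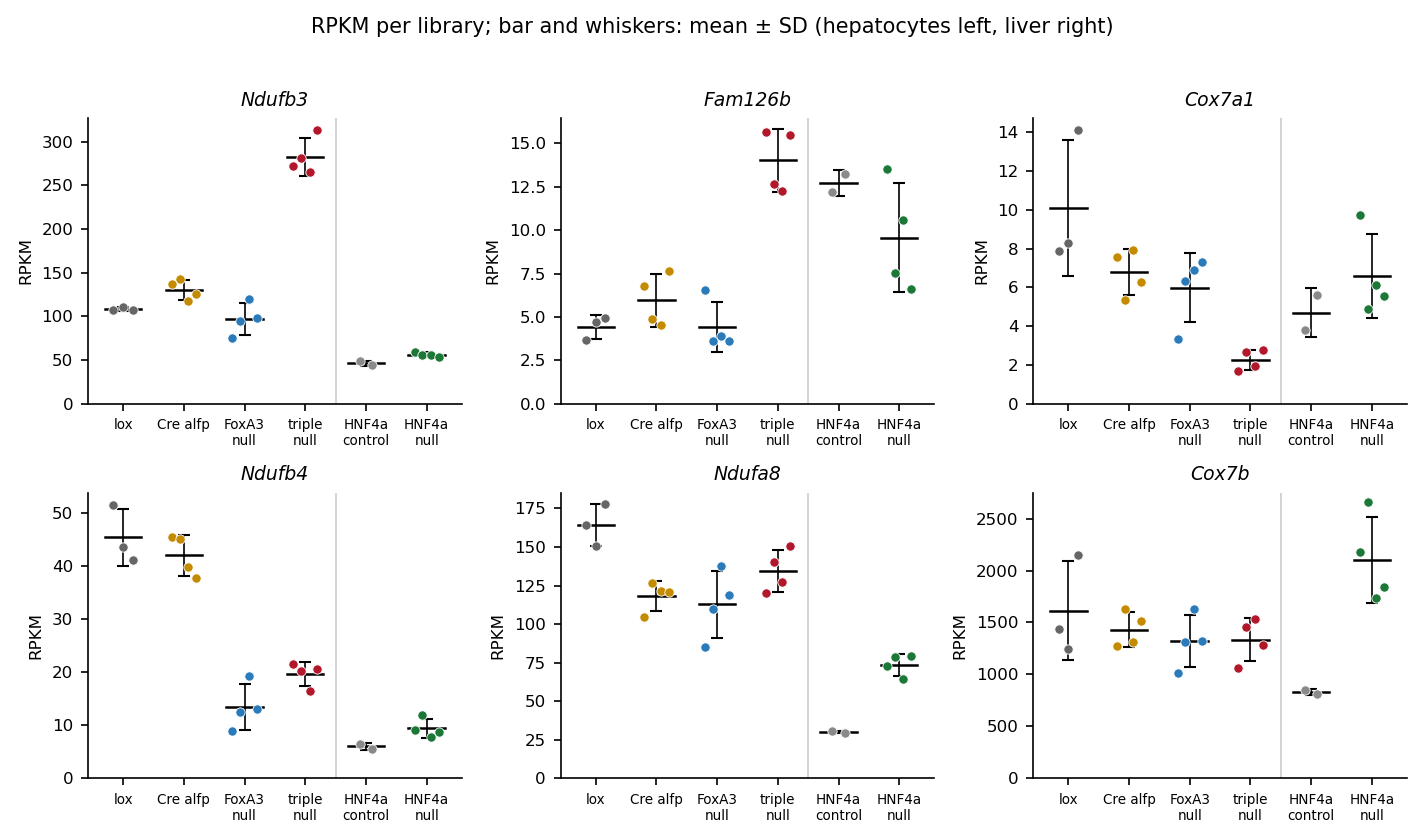
RPKM of Ndufb3, its divergent neighbour Fam126b, Cox7a1, Ndufb4, Ndufa8 and Cox7b in each of the 21 libraries, by group, with 1 point per library and bars and whiskers for the mean and SD. Among hepatocytes Ndufb3 and Fam126b are highest in the 4 triple null libraries, Cox7a1 is lowest there, Ndufb4 is low in FoxA3 null and triple null, and Ndufa8 and Cox7b are higher in the livers labelled HNF4a null than in the controls.

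Cox7a1, the isoform of subunit VIIa known from heart and muscle, changed the other way. It was 1.68, 2.65, 1.96 and 2.75 RPKM in the triple null against 3.36, 6.35, 6.91 and 7.33 RPKM in FoxA3 null. It was 7.86, 8.29 and 14.1 RPKM in lox and 7.55, 5.37, 7.94 and 6.3 RPKM in Cre alfp, and no triple null library reached any other hepatocyte library. The difference was −1.07 ± 0.22 from FoxA3 null (SE, limma adjusted p = 0.00235), −1.74 from lox (limma adjusted p = 6.22e-05) and −1.26 from Cre alfp (limma adjusted p = 0.000526). The isoform that liver is known to use, Cox7a2, was 183 ± 29.9 RPKM in the triple null and 195 ± 35.5 RPKM in FoxA3 null (SD, n = 4 each), a difference of −0.09 (95% interval −0.41 to 0.23).

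Markers of endothelial and stellate cells fell as Cox7a1 did, as did most hepatocyte markers, and those of macrophages and cholangiocytes were not called. Of the 9 hepatocyte markers 7 fell and 2 rose, with a median log2 difference of −2.16. Of the Kupffer cell and macrophage markers 0 of 9 tested rose or fell, with a median log2 difference of −0.07, and of the cholangiocyte markers 0 of 2. The 10 sinusoidal endothelial markers summed to 8.53 to 17.8 RPKM in the triple null against 32.3 to 49.8 in FoxA3 null, with lox at 41.1 to 68.2 and Cre alfp at 22.8 to 82.1, and 5 of the 9 tested fell in triple null against FoxA3 null, 0 rising. The 9 stellate cell and fibroblast markers summed to 6.5 to 23.5 RPKM in the triple null against 25.0 to 34.3 in FoxA3 null, with 2 of 3 tested falling. No marker of either list was at 0 in all libraries of a group. The 11 striated muscle markers summed to at most 0.271 RPKM in any hepatocyte library and none of them passed the filter on low values. The part of endothelial and stellate RNA in the Cox7a1 difference was not tested. Neutrophil and monocyte markers went up instead, from a sum of 3.77 to 7.46 RPKM in FoxA3 null to a sum of 11.8 to 115 in the triple null, with 2 of 3 tested rising and Ly6g at 0 in all 8 libraries, and their part in the genes that rose was not tested. Of the erythroid markers 3 of 4 tested rose, the globin genes Hbb-b1, Hba-a1 and Hba-a2 by 1.49, 1.79 and 1.33, and Alas2 fell by 4.29, while the list summed to 34.0 to 48.1 RPKM in FoxA3 null and 8.06 to 29.7 in the triple null. Of the fat cell markers 1 was tested, Fabp4, which rose by 1.09, with sums of 1.23 to 1.57 and 1.81 to 9.92 RPKM. The part of these cells was not tested either.

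The remaining calls in triple null against FoxA3 null were smaller. In complex I, Ndufb4 rose by 0.56 ± 0.17 (SE, limma adjusted p = 0.0249) and Ndufa10, a membrane arm accessory subunit, by 0.49 ± 0.10 (SE, limma adjusted p = 0.00304). Ndufa5, Ndufb7, Ndufa1, Ndufa13, Ndufa12 and Ndufs6 rose by 0.36 to 0.55. Core complex I subunits of the arm that carries the flavin and iron-sulfur clusters are given by their values, and none of these 6 was called. Ndufs1 was at −0.23, Ndufs3 at −0.06, Ndufs7 at −0.08, Ndufs8 at 0.27, Ndufv1 at 0.13 and Ndufv2 at 0.36 on the log2 scale, and the adjusted p of Ndufv2 was the lowest of these at 0.0571 (limma).

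Ndufa4 fell, from 684, 787, 828 and 766 RPKM in FoxA3 null to 452, 620.2, 676 and 551 RPKM in the triple null, a difference of −0.43 ± 0.13 (SE, limma adjusted p = 0.0204). In complex III, Uqcrb, which binds ubiquinone, rose by 0.55 ± 0.17 (SE, limma adjusted p = 0.0239), from 122, 172, 254 and 194 RPKM to 249.9, 278, 235 and 296 RPKM. The Rieske iron-sulfur protein Uqcrfs1 was at 0.03 and was not called. In complex IV, Cox6b1 rose by 0.40 ± 0.12 (SE, limma adjusted p = 0.0253). In complex V, Atp5h, a subunit of the peripheral stalk, rose by 0.47 ± 0.17 (SE, limma adjusted p = 0.0460), Atp5j2 by 0.41 and Atp5g3, a gene for the c-ring subunit, by 0.36, while Atp5sl fell by 0.58. The catalytic subunits Atp5a1 and Atp5b were at −0.18 and −0.05 and were not called.

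The count of small calls rested on single libraries. FoxA3 null replicate 1 was the lowest of its group in 61 of 76 members, as was triple null replicate 1, and FoxA3 null replicate 3 was the highest of its group in 54. Without FoxA3 null replicate 1, 2 or 4 the count that rose was 2, 3 or 6, without FoxA3 null replicate 3 it was 26, and without triple null replicate 2 or 4 it was 2 in each case. The count that fell was 1 without FoxA3 null replicate 2 and without triple null replicate 1 or 4. Of the 8 fits that left out 1 library, Atp5sl lost its call in 7, at −0.71 to −0.44, Atp5h in 6, at 0.30 to 0.62, Uqcrb in 4, at 0.37 to 0.72, Cox6b1 in 4, at 0.30 to 0.50, and Ndufa4 in 3, at −0.51 to −0.32. With each library scaled to the same median, 4 genes rose and 3 fell, beside 15.8% and 14.6% of all genes. Ndufb3 and Cox7a1 kept their calls in all 8 fits that left out 1 library, at 1.44 to 1.66 and −1.28 to −0.97.

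With FoxA3 present, deletion of FoxA1 and FoxA2 by Cre alfp gave no called member. The contrasts with and without FoxA3 also differ in how Cre was given, Cre alfp against no Cre here and virus with Cre against virus with GFP there, and FoxA3 status and the Cre route cannot be told apart. In Cre alfp against lox, 0 of 76 genes rose and 0 fell by limma, beside 2.84% higher and 2.62% lower among all genes, and 3 members had an unadjusted p under 0.05. The median log2 difference was −0.10, beside 0.02 for all genes, and each complex had a median below 0. The highest member was Sdha at 0.61 (95% interval 0.02 to 1.2) and the lowest Cox7a1 at −0.48 (95% interval −0.99 to 0.03). Ndufb3 was at 0.26 (95% interval −0.02 to 0.55, limma adjusted p = 0.324). Fam126b was at 0.34 (limma adjusted p = 0.403).

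The difference between both deletion contrasts, triple null minus FoxA3 null less Cre alfp minus lox, was tested directly. It was called higher for 4 of 76 members and lower for 0, beside 8.25% and 6.17% of all genes. These were Ndufb3 at 1.29 ± 0.18 (SE, limma adjusted p = 0.000392), Ndufa8 at 0.74 ± 0.20 (limma adjusted p = 0.0249), Ndufa10 at 0.63 ± 0.15 (limma adjusted p = 0.0143) and Cox6b1 at 0.58 ± 0.18 (limma adjusted p = 0.0488). Ndufa8 is a subunit of the intermembrane space side of complex I, and Cox6b1 links the monomers of cytochrome oxidase. Fam126b differed likewise, at 1.15 (limma adjusted p = 0.0121). Cox7a1 was at −0.59 (95% interval −1.29 to 0.10), so its fall in the triple null was not shown to differ from Cre alfp against lox. The count was 17 without FoxA3 null replicate 3 and 2 without lox replicate 1, Cre alfp replicate 1 or triple null replicate 4, and 1 member was called lower without Cre alfp replicate 2 or triple null replicate 3. Ndufb3 kept the call in all 15 fits that left out 1 library. Under median scaling and under quantile normalization the count was 3, and Cox6b1 was not called in either.

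**Figure D2:**
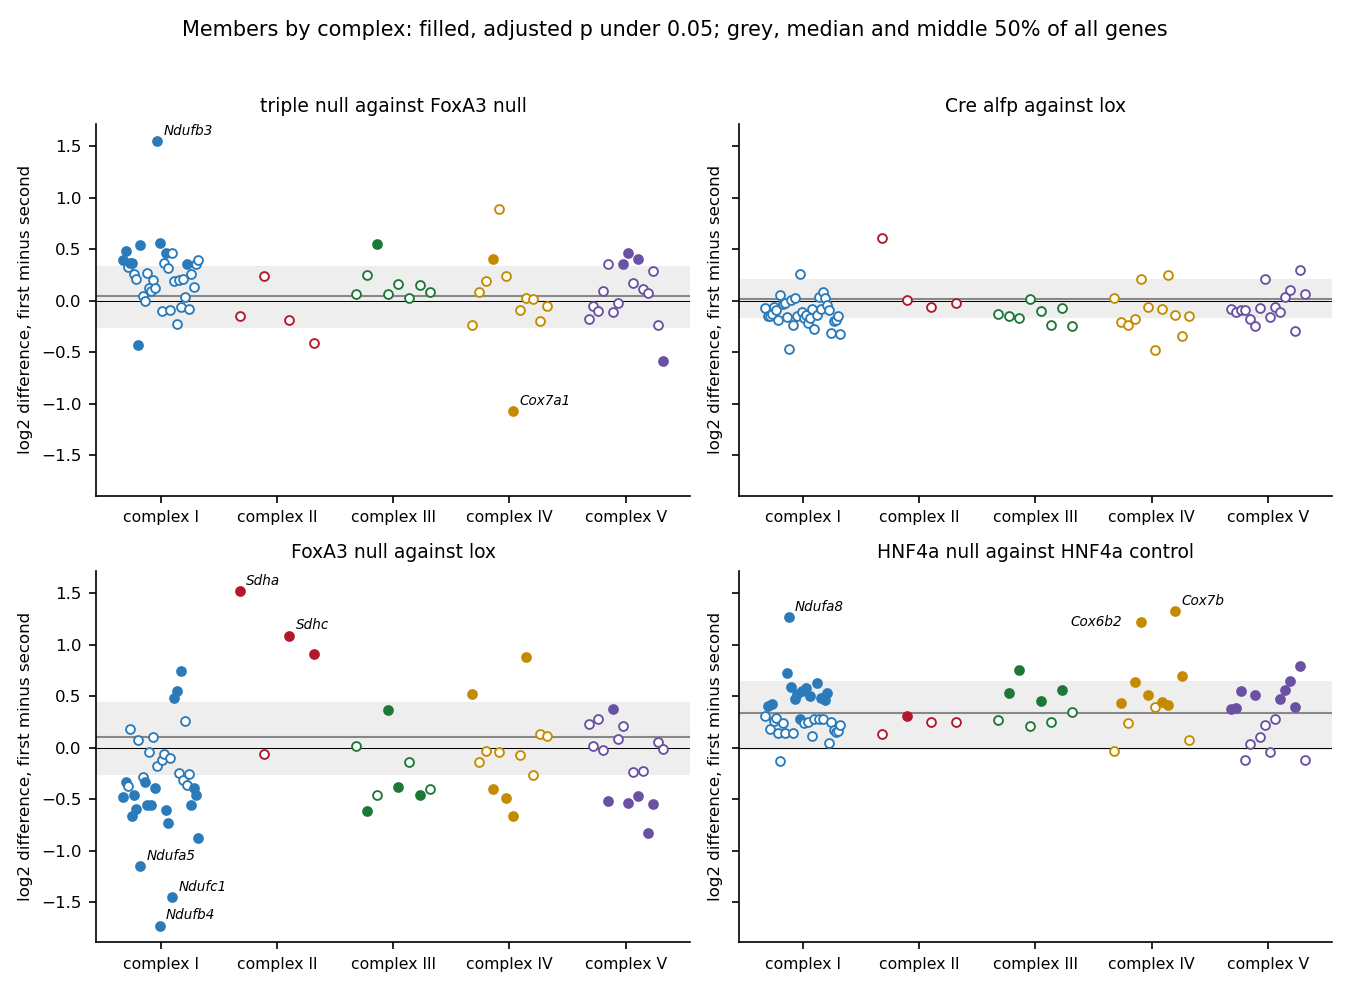
Log2 differences of the 76 tested members by complex in triple null against FoxA3 null, Cre alfp against lox, FoxA3 null against lox and the livers labelled HNF4a null against their controls, with filled points for called members. Ndufb3 at 1.55 and Cox7a1 at −1.07 stand apart in the first comparison, no point is filled in the second, complex I lies mostly below 0 in the third with Sdha, Sdhc and Sdhd above it, and the fourth lies mostly above 0.

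FoxA3 null against lox, which lies across the sets with and without FoxA3, had the most called members of the hepatocyte comparisons. Triple null against lox and against Cre alfp also cross these sets, with medians of −0.08 and 0.06. In FoxA3 null against lox, 10 of 76 members were higher and 29 lower by limma, which is 13.2% and 38.2% beside 21.7% and 13% of all genes. The median log2 difference was −0.25, beside 0.10 for all genes. Complex I held 3 that were higher and 18 that were lower, complex II 3 and 0, complex III 1 and 3, complex IV 2 and 3 and complex V 1 and 5. With each library scaled to the same median the counts were 5 higher and 34 lower. The lower count was 16 without lox replicate 1 or lox replicate 2 and 18 without FoxA3 null replicate 1. The higher count was 5 without lox replicate 1 or 2 or FoxA3 null replicate 2, and 6 without FoxA3 null replicate 4.

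Complex II, which is also the succinate dehydrogenase of the citrate cycle, was the complex with 3 of 4 members higher and 0 lower. Sdha, the flavoprotein, was 502, 369, 246 and 303 RPKM in FoxA3 null and 129, 83.3 and 157 RPKM in lox. Sdhc, a membrane anchor, was 238, 266, 215 and 243 RPKM against 100.2, 92.7 and 152 RPKM. Sdhd, the other anchor, was 153, 136, 103 and 121 RPKM against 67.2, 57.9 and 76.5 RPKM. For all 3 genes the groups did not overlap, and the differences were 1.52 ± 0.28 for Sdha, 1.09 ± 0.23 for Sdhc and 0.91 ± 0.20 for Sdhd (SE, limma adjusted p = 0.00172, 0.00404 and 0.00475). Sdhb, the iron-sulfur protein, was 197, 235, 241 and 199.9 RPKM against 206, 207 and 274 RPKM. Its groups overlapped and its difference was −0.06 (95% interval −0.35 to 0.22).

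Within each set no complex II gene was called. Sdha was 245, 247, 493 and 308 RPKM in the triple null, within the range of FoxA3 null but for its lowest library, and 198, 167, 196 and 171 RPKM in Cre alfp, above every lox library. Triple null minus FoxA3 null was −0.15 for Sdha (95% interval −0.69 to 0.40), −0.18 for Sdhc (−0.64 to 0.28), −0.41 for Sdhd (−0.81 to −0.01) and 0.24 for Sdhb (−0.03 to 0.50). Cre alfp minus lox was 0.61 for Sdha, −0.06 for Sdhc, −0.02 for Sdhd and 0.01 for Sdhb. The mean log2 level over the 4 genes was 7.65 ± 0.37 in the triple null (SD over libraries), close to FoxA3 null at 7.78 ± 0.17, with lox at 6.91 ± 0.30 and Cre alfp at 7.05 ± 0.06. Complex I ran the other way between lox, at 7.41 ± 0.02, and FoxA3 null, at 7.07 ± 0.21. The triple null, at 7.309 ± 0.126, and Cre alfp, at 7.295 ± 0.097, were close to each other in complex I.

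**Figure D3:**
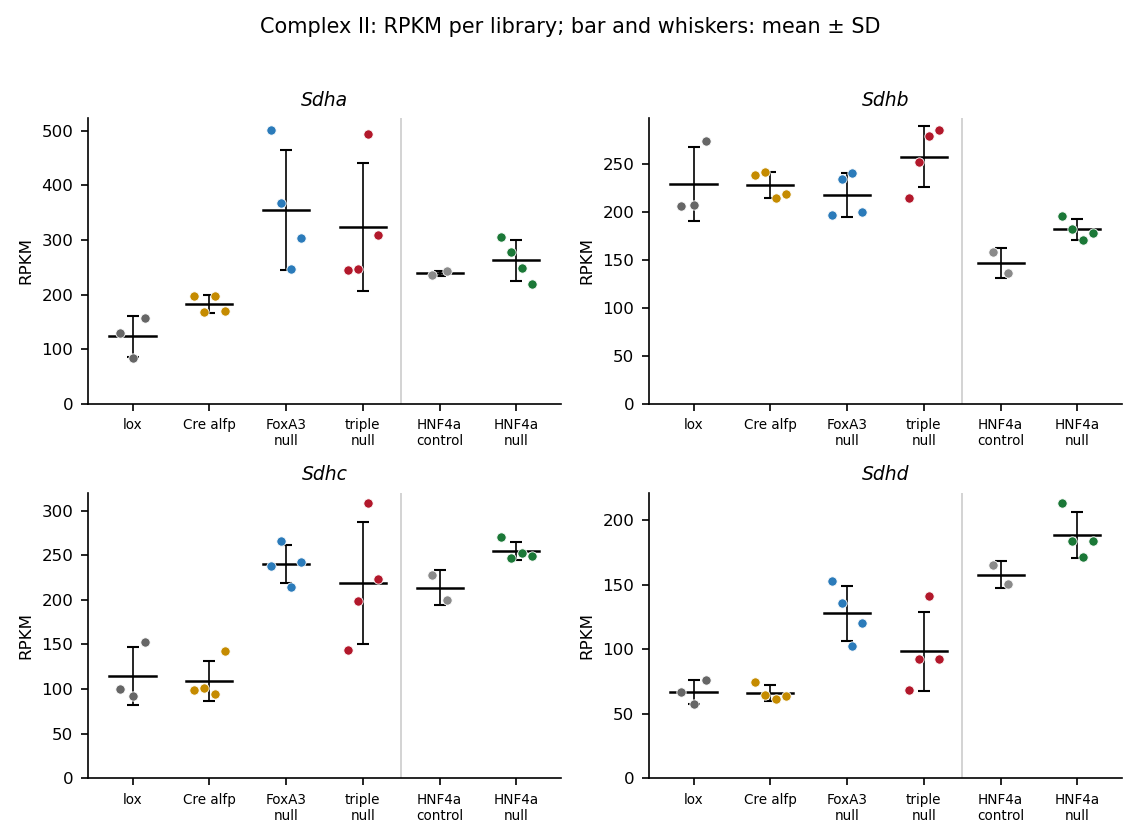
RPKM of Sdha, Sdhb, Sdhc and Sdhd in each of the 21 libraries by group, 1 point per library, with bars and whiskers for the mean and SD. Sdha, Sdhc and Sdhd are higher in FoxA3 null than in every lox library, and Sdhb overlaps between these groups.

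The genes lowest in FoxA3 null were accessory subunits of complex I. Ndufb4 was 8.88, 12.5, 19.2 and 13.1 RPKM in FoxA3 null against 51.5, 43.6 and 41.2 RPKM in lox, a difference of −1.73 ± 0.19 (SE, limma adjusted p = 3.18e-05). Cre alfp resembled lox with 45.5, 45, 39.8 and 37.7 RPKM. The triple null had 21.6, 20.3, 16.5 and 20.6 RPKM, with the library at 16.5 RPKM inside the range of FoxA3 null. Its other libraries lay between FoxA3 null and Cre alfp. Ndufc1 was 52.7, 58.7, 121 and 93 RPKM against 239.5, 216 and 184 RPKM, a difference of −1.45 ± 0.23 (SE, limma adjusted p = 0.000776). Neither gene overlapped between FoxA3 null and lox. Of the core subunits, Ndufs8, Ndufv1 and Ndufv2 were lower, by 0.56, 0.39 and 0.46, while Ndufs3 was higher at 0.74 and Ndufs1 at 0.55, and Ndufs7 was not called. Cox7a2l, known as a factor of respiratory supercomplexes, was higher at 0.88 (limma adjusted p = 0.00182).

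Set against lox and Cre alfp, the triple null was higher in Ndufb3, Sdha and Sdhc and lower in Ndufb4 and Cox7a1. These comparisons share the triple null libraries with the first one. In triple null against lox, 9 members were higher and 10 lower, beside 27.7% and 14.8% of all genes, with a median of −0.08 beside 0.13. Median scaling gave 9 higher and 22 lower, the higher count was 15 without triple null replicate 1, and the lower count was 6 without lox replicate 1 or 2. In triple null against Cre alfp, 14 were higher and 8 lower, beside 26.9% and 14.4%, with a median of 0.06 beside 0.13. Median scaling gave 9 and 11, the higher count was 9 without triple null replicate 4, and the lower count was 5 without Cre alfp replicate 1 or 2 or triple null replicate 3. Ndufb3 was the highest member in both and Cox7a1 the lowest. Sdha was at 1.37 against lox and 0.76 against Cre alfp, Sdhc at 0.90 and 0.96, and Ndufb4 at −1.16 and −1.06, all of them called. The authors' deposited tables had a different balance, with 7 of 76 members higher and 32 lower in triple null against the undeleted control, beside 25.7% and 25.9% of its genes, and 8 of 76 higher and 20 lower in triple null against Cre alfp, beside 25.2% and 25.7% of its genes. Ndufb3, Sdha, Ndufb4 and Cox7a1 had the same direction and passed the threshold in both of the authors' deposited tables, and Sdhc, at −0.05 and 0.17, did not pass it in either. Markers of other cells moved in both comparisons. Sinusoidal endothelial markers fell in 5 of 9 tested against lox and 9 of 9 against Cre alfp, and neutrophil and monocyte markers rose in 2 of 3 in each. Kupffer cell and macrophage markers fell in 0 of 9 and 2 of 9. The part of these cells was not tested.

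**Figure D4:**
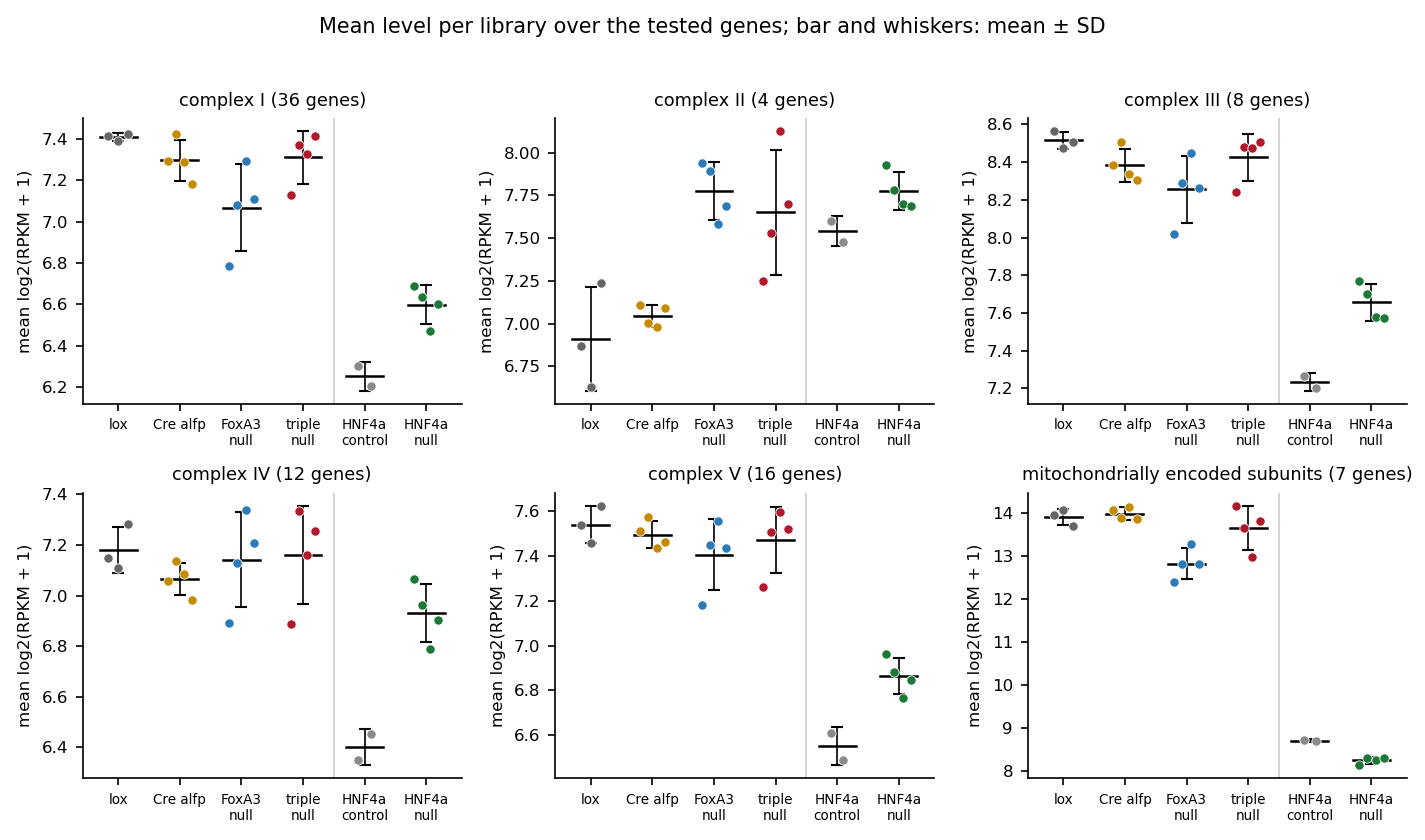
Mean log2(RPKM + 1) over the tested members of each complex, and over 7 mitochondrially encoded subunits, in each of the 21 libraries by group, with bars and whiskers for the mean and SD. Complex II is higher in FoxA3 null and triple null than in Cre alfp, complexes I, III and V are lower in liver than in hepatocytes, complex IV overlaps, and the mitochondrially encoded genes are lowest in liver.

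Livers labelled HNF4a null had higher levels of many members, together with a general shift of all genes. In these libraries 37 of 76 genes were higher and 0 lower than in the controls, which is 48.7% beside 41.1% higher and 11.7% lower among all 12434 genes tested. The median log2 difference was 0.31 for members and 0.34 for all genes, so without scaling the members did not stand above the general shift. Complex I held 15 of the 37, complex II 1, complex III 4, complex IV 8 and complex V 9. With each library scaled to the same median, 9 were higher and 3 lower, beside 18.3% and 17% of all genes. Quantile normalization gave 46 and 0, which is 60.5% higher beside 22.6% higher and 15.5% lower among all genes. The median was then 0.347 for members and 0.105 for all genes, so whether the members exceeded the general shift depended on the scaling. Without the control library ATTCCTA the count was 15, and a lone control is then assumed to vary like the other group. In the authors' deposited table of this comparison, 6 of 76 were higher and 15 lower, beside 21.4% and 24.9% of its genes, and its scaling is not stated.

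Cox7b and Ndufa8 rose beyond that shift. Cox7b, a small subunit of cytochrome oxidase, was 849.7 and 807 RPKM in the controls and 2175, 2655, 1740.4 and 1841 RPKM under the label HNF4a null. Ndufa8 was 30.4 and 29.5 RPKM against 72.7, 78.5, 64.1 and 79.3 RPKM. Neither gene overlapped between the groups. The differences were 1.32 ± 0.19 for Cox7b (SE, limma adjusted p = 0.00172) and 1.27 ± 0.11 for Ndufa8 (limma adjusted p = 0.000233), which is 0.99 and 0.93 above the median of all genes. In the authors' deposited table both were higher as well, Cox7b at 0.64 and Ndufa8 at 0.89. In hepatocytes neither was called in triple null against FoxA3 null, Cox7b at 0.02 (95% interval −0.37 to 0.42) and Ndufa8 at 0.27 (95% interval −0.02 to 0.56).

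Cox6b2, the isoform known from testis, was 0.398 and 3.25 RPKM in the controls and 4.73, 5.66, 3.42 and 5.12 RPKM under the label HNF4a null, with a difference of 1.22 (limma adjusted p = 0.0452). Its controls lay far apart. Uqcrb rose by 0.76, Atp5k, a subunit of the membrane part of ATP synthase, by 0.56 and Sdhb by 0.31, and Sdhb was at −0.03 relative to the median of all genes. The Sdhb call was lost in 5 of 6 fits that left out 1 library, at 0.20 to 0.42, and under median scaling, and the Atp5k call without the control library ATTCCTA, at 0.47, and under median scaling, at 0.30. Cox7a1 was 3.79 and 5.6 RPKM in the controls against 9.73, 4.87, 6.14 and 5.56 RPKM, with overlapping groups, and was not called. Ndufb3 was 48.4 and 44 RPKM in the controls against 59.4, 55.3, 56 and 53.8 RPKM, at 0.28 (limma adjusted p = 0.0358), which is −0.06 relative to the median. Fam126b, at 12.2 and 13.2 RPKM against 13.5, 7.51, 10.6 and 6.61 RPKM, was not called.

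Markers of cholangiocytes, neutrophils and monocytes were higher under the label HNF4a null as well. The 8 cholangiocyte markers summed to 16.7 to 17.0 RPKM in the controls and 132 to 230.3 RPKM under the label HNF4a null, with 6 of 6 tested rising. The 11 Kupffer cell and macrophage markers summed to 156 to 164 and 194 to 239 RPKM, with 4 of 11 rising, or 36.4% beside 41.1% of all genes. Their median was 0.29 beside 0.34, so without scaling this list did not stand above the general shift. Of the 9 hepatocyte markers 4 fell and 2 rose, and no marker of these 3 lists was at 0 in all libraries of a group. The 7 neutrophil and monocyte markers summed to 27.6 to 28.0 RPKM in the controls and 34.8 to 58.3 RPKM under the label HNF4a null, with 2 of 3 tested rising and Ly6g at 0 in all 6 libraries. Of the stellate cell and fibroblast markers 4 of 8 tested rose and of the sinusoidal endothelial markers 3 of 10, with medians of 0.38 and 0.22 beside 0.34. The part of these cells in the liver differences was not tested.

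Hepatocytes and livers were not fitted together, and tissue and library set cannot be told apart. Set side by side, the median ratio of the lox mean to the HNF4a control mean over members tested in both was 2.08. Uqcrq was 2117 ± 85.3 RPKM in lox (SD, n = 3) and 78.7 ± 8.77 RPKM in the HNF4a controls (SD, n = 2), a ratio of 26.9. Its annotated span overlaps Gdf9, so its reads may be shared. Atp5l followed at 10.1 times, Ndufb4 at 7.52 and Ndufa8 at 5.49. Among complex II genes the ratio was 0.426 for Sdhd, 0.516 for Sdha and 0.538 for Sdhc but 1.56 for Sdhb. The first 3 lay next to Ndufs1 at 0.439 and Cox7a2l at 0.455.

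The subunits encoded in mitochondrial DNA had differences of their own. Of 13 in the matrix, 7 passed the filter in hepatocytes and 8 in liver. mt-Co2, mt-Nd4l, mt-Atp6 and mt-Atp8 were listed at 0 in every library, and mt-Co3 was at most 0.0594 RPKM. The genes tested thus cover only part of these subunits and none of complex V. In triple null against FoxA3 null 5 of 7 rose and 0 fell, beside 17.4% higher and 12.3% lower among all genes, with a median of 0.86, beside 0.14 for the nuclear members. mt-Nd1 was 24539, 19085, 10477 and 21129 RPKM in the triple null and 5655, 8291, 11782 and 7723 RPKM in FoxA3 null, a difference of 1.15 ± 0.24 (SE, limma adjusted p = 0.00290), with triple null replicate 3 inside the range of FoxA3 null. The 7 genes summed to 43272 to 76725 RPKM in FoxA3 null against 63274 to 144748 in the triple null, with lox at 100446 to 129351 and Cre alfp at 113589 to 140764, so FoxA3 null was the low group here. In FoxA3 null against lox 6 of 7 were lower and 0 higher, beside 13% lower and 21.7% higher among all genes, with a median of −1.14. In Cre alfp against lox 0 of 7 were called, beside 2.84% higher and 2.62% lower among all genes. In triple null against lox 0 of 7 were called as well, beside 27.7% higher and 14.8% lower. In triple null against Cre alfp 1 of 7 was lower, or 14.3%, near the 14.4% of all genes. In liver 4 of 8 fell and 0 rose, beside 11.7% lower and 41.1% higher among all genes, among them mt-Cytb by 0.98 (limma adjusted p = 0.000853) and mt-Nd1 by 0.75, while the nuclear members were higher or not called.

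Genes that build or serve the chain were taken from lists chosen with earlier results of these data known. In triple null against FoxA3 null, 15 of 46 assembly factors rose and 2 fell, as did 24 and 1 of 75 mitochondrial ribosomal proteins, 7 and 1 of 16 citrate cycle and pyruvate dehydrogenase genes, 3 and 2 of 16 import genes, 2 and 0 of 19 regulators of mitochondrial biogenesis and 4 and 3 of 75 cytosolic ribosomal proteins. The medians were 0.22, 0.26, 0.30, 0.09, 0.02 and −0.02 in that order, beside 0.05 for all genes, of which 17.4% rose and 12.3% fell. The share that rose was 32.6% of assembly factors, 32% of mitochondrial ribosomal proteins and 43.8% of citrate cycle genes, and 18.8%, 10.5% and 5.33% of the last 3 lists, near or below that of all genes. Of 6 subunits and carriers outside the symbol rule, Ndufab1 rose by 0.60 and Cycs, cytochrome c, by 0.55, and Ndufa4l2 fell by 0.64. Cycs and Ndufa4l2 were low, with means of 2.10 against 1.12 RPKM and 0.42 against 1.24 RPKM. In Cre alfp against lox 4 of 46 assembly factors (8.7%) and 3 of 16 citrate cycle genes (18.8%) fell, beside 2.62% of all genes. Of ribosomal proteins 3 of 75 cytosolic (4%) and 1 of 75 mitochondrial ones (1.33%) fell. In these 4 lists 0 genes rose. The authors' deposited table of triple null against FoxA3 null had 5 of 16 citrate cycle genes higher and 3 lower. There 11 of 44 assembly factors were higher and 5 lower. Of mitochondrial ribosomal proteins 21 of 74 were higher and 3 lower, and of cytosolic ones 0 of 74 and 10. Among all its genes 20.6% were higher and 22.1% lower. How far the counts of these lists rest on single libraries was not tested.

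Of the list of the ATPase inhibitor and nucleotide or phosphate carriers, 2 of 4 tested genes rose in triple null against FoxA3 null, Atpif1 and Ucp2, while the carriers Slc25a3 at −0.13 and Slc25a5 at 0.11 were not called. Atpif1, the inhibitor that blocks ATP hydrolysis by complex V, was 122, 152, 134 and 134 RPKM in the triple null and 18.8, 26.6, 41.1 and 43 RPKM in FoxA3 null. It was 47.6, 46.8 and 33.8 RPKM in lox and 82.9, 78.3, 74.7 and 87.6 RPKM in Cre alfp, so every Cre alfp library lay between the highest lox and the lowest triple null library. The difference between triple null and FoxA3 null was 2.10 ± 0.21 (SE, limma adjusted p = 4.89e-06). Ucp2, a member of the uncoupling protein family, was 28.8, 46.9, 29.4 and 52.5 RPKM against 4.77, 6.45, 4.71 and 5.41 RPKM, a difference of 2.63 ± 0.31 (SE, limma adjusted p = 2.15e-05). Fh1, fumarate hydratase of the citrate cycle, was 305, 341, 358 and 323 RPKM against 104, 151, 182 and 163 RPKM, a difference of 1.17 (limma adjusted p = 0.000221). Its lox libraries, at 309, 291 and 319 RPKM, overlapped the triple null, and Cre alfp was 140.2, 243, 155 and 172 RPKM.

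In the livers labelled HNF4a null, Slc25a4, an ADP/ATP carrier of the inner membrane, rose from 2.12 and 3.07 RPKM to 18.8, 24.4, 18.7 and 15.2 RPKM, a difference of 2.49 ± 0.20 (SE, limma adjusted p = 0.000157). Ppara, a nuclear receptor for fatty acid oxidation genes, fell from 63.1 and 52.4 RPKM to 13.8, 11.9, 11.7 and 10.4 RPKM, a difference of −2.18 ± 0.13 (SE, limma adjusted p = 4.88e-05). Neither gene overlapped between the groups. Of 16 citrate cycle and pyruvate dehydrogenase genes 10 rose, or 62.5%, among them Dlat by 1.00 and Pdhb by 0.95, and 1, Fh1, fell by 0.79. Of 46 assembly factors 21 rose and 3 fell, a share of 45.7% higher that is near the 41.1% of all genes, and of 75 mitochondrial ribosomal proteins 41 rose and 1 fell, or 54.7% higher. Of 75 cytosolic ribosomal proteins 46 rose and 0 fell, or 61.3% higher. The medians of these 4 lists were 0.42, 0.36, 0.40 and 0.54, beside 0.34 for all genes. The authors' deposited table of this comparison had a different balance. There 4 of 16 citrate cycle genes were higher and 6 lower, and 8 of 44 assembly factors were higher and 10 lower. Of mitochondrial ribosomal proteins 9 of 74 were higher and 14 lower, and of cytosolic ones 16 of 75 and 3. Among all its genes 21.4% were higher and 24.9% lower.

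The authors' deposited tables place the adult levels beside development. In their table of hepatoblast against adult hepatocytes, 75 of 78 members were lower and 2 higher at an adjusted p under 0.05, beside 37.9% lower and 41.3% higher among its 13473 genes, and the median log2 fold change was −2.46. Every listed gene of complexes I, II, III and V was lower. Among the genes that were lower, Cox6c at −5.26 was the lowest, Ndufb3 was at −4.56 and Ndufb8 at −0.77. The 2 higher genes were Cox6b2 at 3.45 and Cox4i2, the isoform known from lung, at 3.25. Mitochondrial ribosomal proteins were lower in 61 of 76 and cytosolic ones in 28 of 75. The adult libraries behind this table are not named in it.

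Newborn hepatocytes had 65 of 76 members lower and 7 higher than adult hepatocytes in the authors' deposited table, beside 31.7% and 31.6% of its genes, and a median of −1.63. Cytosolic ribosomal proteins were lower in 63 of 75 and higher in 0 there, with a median of −1.60, near that of the members. Mitochondrial ribosomal proteins were lower in 62 of 75 and higher in 2, with a median of −1.02. Among the members Ndufb4 was lower at −3.37 and Ndufb3 at −2.77. The higher members included catalytic ones, Atp5b at 0.92, Sdha at 0.88, Atp5a1 at 0.51 and Ndufs1 at 0.50. The triple null differed from the hepatoblast in nearly all of these genes. In the authors' deposited table of triple null against hepatoblast 73 of 78 were higher and 3 lower, beside 37.6% and 43.6% of its genes. Ndufb3 was higher at 5.75, and the 3 lower were Cox4i2, Cox6b2 and Atp5g2. In the authors' deposited table of triple null against FoxA3 null, 6 of 76 were higher and 6 lower, beside 20.6% and 22.1%. Ndufb3 was at 1.50 and Cox7a1 at −1.42 there, both past the adjusted threshold, as was Atp5sl at −0.87, and so was Cox6b2 at 1.92.

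**Figure D5:**
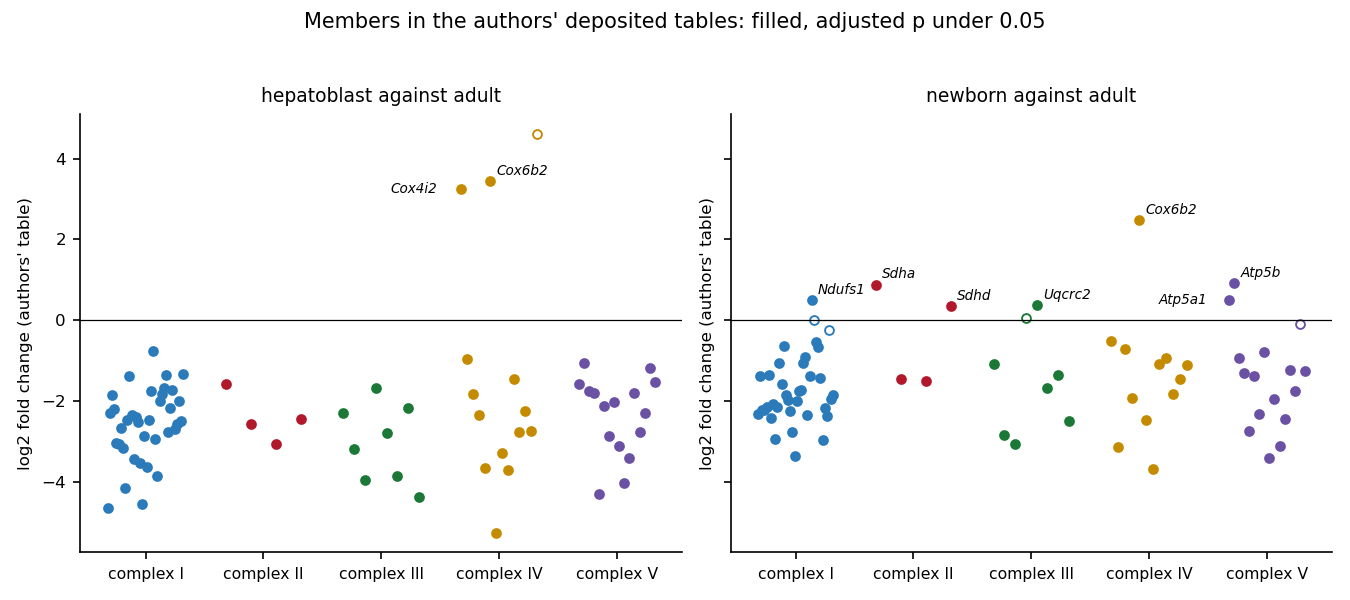
The authors' deposited log2 fold changes of the members by complex in hepatoblast against adult and newborn against adult, with filled points for an adjusted p under 0.05. In hepatoblasts 75 of 78 members are lower and Cox4i2 and Cox6b2 are higher, and in newborns 65 of 76 are lower.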

How the data were processed

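RNA levels are RPKM values that the authors deposited as 1 matrix. The submitters' processing notes name SAMtools, Cufflinks 2.2.1, DESeq2 and mm9, with no role or order, so the aligner and counting settings behind the RPKM are not given in the sources used here. The names of 21 columns matched a sample or group, and 9 other columns were not used. Liver libraries are told apart by barcodes. No read count was used, absolute depth is unknown, and relative depth came from low RPKM values. Strand use is not stated, so genes that overlap a neighbour may share reads.

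The test was limma 3.58.1 (R 4.3.3) with lmFit and trended eBayes on log2(RPKM + 1), a scale that shrinks differences of genes with low values. The 15 hepatocyte libraries were modelled together and the 6 liver libraries separately, without covariates. Genes needed RPKM of at least 1 in at least 3 or 2 libraries, and a call needed a Benjamini-Hochberg adjusted p-value under 0.05 over all genes tested. The 95% intervals use limma's moderated degrees of freedom. The code was tested on simulated data.

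The log2 fold changes and p-values in the comparison tables are as the authors deposited them, per the file headers; the tests behind them are not stated there. Where the deposited p-value was unadjusted it was adjusted by the Benjamini-Hochberg method, and the sign of the table against undeleted controls was turned.

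The genes and lists were chosen with earlier results of these data known. Named are the highest and lowest called member of each complex in the main comparisons and the 2 highest and lowest in the others, both at a mean RPKM of at least 5, and, with no such minimum, isoform families, complex II, catalytic and iron-sulfur subunits and the 3 largest called changes of a list; other names, such as Ndufa5, Cox6c and the neighbours of Ndufb3, were picked after their values were seen. Alternatives were another pseudocount (0.1), no filter, median and quantile scaling, a minimum difference, left-out libraries, a replicate block and fits of both groups alone. Chromatin data were not used here.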

Additional observations from a re-analysis of the deposited data

Results flagged for a closer look

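Among 150 groups of 4 libraries examined for the named genes, 2 held a library far from the others, where chance flags about 1 in 20 groups. Sdhc was 142 RPKM in Cre alfp replicate 4 and 94 to 101 RPKM in the other Cre alfp libraries. Atp5b was 1140 RPKM in triple null replicate 1 and 1410 to 1430 RPKM in the other triple null libraries.

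For 4 genes triple null against FoxA3 null differed from Cre alfp against lox by limma's test of the difference of both contrasts. FoxA3 status and the Cre route, by virus or by Cre alfp, cannot be told apart in this difference. The log2 difference was 1.29 for Ndufb3, 0.74 for Ndufa8, 0.63 for Ndufa10 and 0.58 for Cox6b1. For Ndufa8 neither contrast was called on its own, with log2 differences of 0.27 (triple null minus FoxA3 null) and −0.47 (Cre alfp minus lox), and the call was lost in 4 of 15 fits that left out 1 library. Cox6b1 was not called under median scaling or quantile normalization.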

How the results depend on the processing

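With a minimum log2 difference of 1, the counts higher and lower were 1 and 1 in triple null against FoxA3 null, 2 and 2 against lox, 1 and 2 against Cre alfp, 2 and 3 in FoxA3 null against lox, 1 higher in the difference of both contrasts and 3 higher in liver. Without the filter on low values 3 members rose in triple null against FoxA3 null. Median scaling gave 4 higher there, 22 lower against lox, 9 higher against Cre alfp, 5 higher in FoxA3 null against lox, and 9 higher and 3 lower in liver. Fits of both groups alone gave 2 higher in triple null against FoxA3 null and 16 lower in FoxA3 null against lox. Without both replicate 1 libraries, an alternative chosen after seeing the data, 4 rose in triple null against FoxA3 null. The cause of these changes was not tested.

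Leaving out 1 library at a time gave 2 to 26 higher and 1 to 4 lower in triple null against FoxA3 null, 0 to 0 in Cre alfp against lox, 2 to 17 higher and 0 to 1 lower for the difference of both contrasts, 9 to 15 and 6 to 9 against lox, 9 to 19 and 5 to 8 against Cre alfp, 5 to 9 and 16 to 35 in FoxA3 null against lox, and 15 to 39 and 0 in liver. Correlations of same-numbered libraries ran from −0.36 to 0.17, and 0 libraries correlated best with their own number. These values gave no sign of pairing by number, but weak correlations over all genes cannot exclude it. With the replicate block, 9 members rose in triple null against FoxA3 null. For 26 results on named genes, 303 of 355 alternative values kept direction and call, 52 lost the call and 0 reversed. Relative depth was lowest in the liver libraries, and how far depth limits each gene was not tested.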
